A study of Mus musculus with 8 samples.

Results

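BV-2 cells that had received lipopolysaccharide (LPS) and a hexane fraction (HF) from Amauroderma rugosum, a mushroom, were set against untreated BV-2 cells, to find which genes stayed away from the untreated level and which lay back at it. The comparison holds 4 of the series' 8 arrays: 2 of LPS+HF cells (LPS at 1 µg/mL and HF at 100 µg/mL) and 2 of control cells (no LPS, no HF). They were chosen by their sample titles, and all samples were taken after 24 h. The other 4 arrays, 2 of cells given LPS alone at the same dose and 2 of cells given HF alone at the same dose, entered the fit and are quoted beside the comparison. BV-2 cells are retrovirally immortalised microglia of the mouse, and every group is this 1 line, so no group holds the other cell types of the brain. The labels call the 2 arrays of a group biological replicates but do not say whether they came from separate cultures, so p-values measure the spread between these arrays, which may be partly technical.

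LPS, from the outer membrane of Gram-negative bacteria, binds CD14 and the Toll-like receptor 4 complex on microglia and macrophages. The adaptor MyD88 leads from there to the transcription factor NF-kB, which drives inflammatory cytokines, acute-phase genes and its own inhibitors. The adaptor TRIF leads to interferon beta, and the STAT and IRF factors that interferon activates bind the interferon-stimulated response element (ISRE) of a large set of antiviral genes.

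All levels below are log2 signals relative to the 75th percentile of their array, so 1 unit is a 2-fold difference. A gene passed when its adjusted p (limma moderated test over all 8 arrays, two-sided, Benjamini-Hochberg over 22446 genes) was under 0.05. It was near baseline when the 95% confidence interval of its LPS+HF minus control difference lay inside -1 to 1. Such an interval may still leave out 0, so near baseline means a difference under 2-fold, not the absence of a difference. Per array, 47.8% to 55.0% of the 55681 probes were well above background, and 13799 of the tested genes had a symbol. Control replicate 1 was uneven. Its repeated probes had a coefficient of variation of 48.9%, against 3.77% to 8.06% on the other arrays, and its grid was marked as not good. The SD over genes of replicate 1 minus replicate 2 was 0.34 for LPS+HF and 0.99 for control. All differences were therefore also taken against control replicate 2 alone. The 8 arrays lay on 1 slide, with HF arrays in 1 row and LPS arrays in 2 columns, so LPS+HF and control arrays shared neither row nor column. Treatment and place on the slide cannot be told apart.

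In LPS+HF cells 1144 genes (5.1% of those tested) passed against control, 431 higher (1.92%) and 713 lower (3.18%). Near baseline lay 11274 genes (50.2%), among them 17 that also passed with a small difference. The counts of list members below are to be read beside these shares. The remaining 10045 genes neither passed nor had an interval narrow enough to place them at baseline. The 2 LPS+HF arrays did not overlap the 2 control arrays for any of the 1144, but this also held for 56.7% of all genes tested. Against control replicate 2 alone, 735 of the 1144 lay at least 1 log2 unit away. Without control replicate 1 the fit called 3150 genes, 1306 higher and 1844 lower, which included 1103 of the 1144, and 15143 genes were near baseline. The count moved with every single array left out. It was 11347 without control replicate 2, 260 without either LPS array, 336 without either HF array, 165 without LPS+HF replicate 1 and 145 without LPS+HF replicate 2. The median of all genes was -0.13, and quantile normalization moved it to 0.04, with 420 genes higher and 416 lower in place of 431 and 713.

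**Figure D1:**
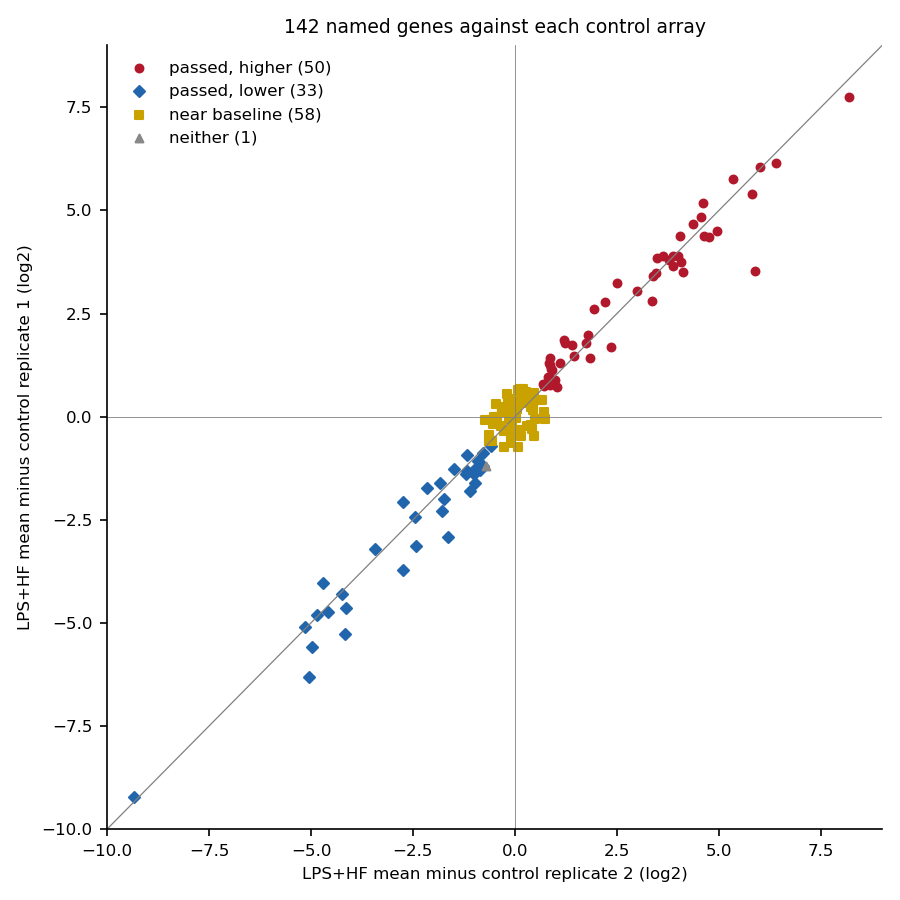
LPS+HF mean minus control replicate 1 (vertical axis, log2) against LPS+HF mean minus control replicate 2 (horizontal axis, log2) for the 142 named genes, of which 50 passed higher, 33 passed lower, 58 were near baseline and 1 was neither. Points lie near the line of equal values, and Zfp811, where the control arrays differed by 2.35, lies farthest from it. The naming rule favours genes whose control arrays agree, so the figure does not show how far these arrays differ over all genes. Over all genes tested, the SD of control replicate 1 minus replicate 2 was 0.99.

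Of the genes that LPS alone moved by at least 1 log2 unit and past the test, 719 (3.2% of genes tested) were higher and 806 (3.59%) lower than control. At any size of difference, 6.35% of the genes tested passed lower with LPS. Of the 719, 222 also passed higher in LPS+HF cells, 204 were near baseline, 8 passed lower, and 285 were none of these. Of the 806, 274 also passed lower in LPS+HF cells, 259 were near baseline (4 of which also passed), and 1 passed higher. Their intervals left 276 undecided. Both comparisons share the 2 control arrays, so these counts describe the genes and are no test. Over the 719, the median difference was 0.73 for LPS+HF minus control, 1.55 for LPS minus control, by which they were chosen, and -0.03 for HF minus control. Over the 806, the corresponding medians were -0.77, -1.39 and -0.35. Against control replicate 2 alone, 472 of the 719 and 545 of the 806 lay within 1 log2 unit. The share of all genes within this range was not counted. Over all genes the median absolute LPS+HF minus control difference was 0.41, so most genes lay within 1 unit of the control mean. Together 496 genes stayed away the same way and 463 were near baseline. These became 787 and 663 without control replicate 1.

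The interferon-stimulated genes held members at baseline and members that were still raised. Of 40 tested members, 7 rose in LPS+HF cells, 2 fell and 10 were near baseline, with a median difference of 0.21, against -0.13 over all genes. LPS alone gave a median of 2.31 with 35 members higher (4.81% of all genes tested were), and HF alone gave -1.34 with 12 lower (0.74% of all genes tested were). Against control replicate 2 alone, 30 of the 40 lay within 1 log2 unit, 9 lay higher and 1 lower. This range was not counted over all genes, most of which lay within 1 unit of the control mean. Without control replicate 1 the median was -0.04. For 11 of the 40, control replicate 1 was read from spots dimmed more than 4-fold.

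Gbp2, an interferon-induced guanylate-binding protein, had the largest difference from control of the list. Its level was 1.50 and 0.70 on the LPS+HF arrays, against -2.81 and -2.89 on the control arrays. It rose by 3.95 (SE 0.27, adjusted p = 0.0025), and LPS alone gave a difference of 6.75. Cxcl10, a chemokine that attracts activated T cells, was at 3.56 and 3.54 in LPS+HF cells, against -0.10 and -0.31 in control cells, a rise of 3.76 (SE 0.15, adjusted p = 0.000405). Its HF minus control value was -1.99, and its level in LPS+HF cells lay above every array without LPS. Rsad2, the antiviral enzyme viperin, rose by 2.27 (SE 0.27, adjusted p = 0.0138), and Gbp3 rose by 2.02 (SE 0.31, adjusted p = 0.0263). The other members that rose were Parp14, Gbp5 and Ifit2, between 1.01 and 1.70.

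Other members were close to the control arrays. Oas3, an oligoadenylate synthetase that senses double-stranded RNA, was at 1.22 and 0.96 in LPS+HF cells, against 0.75 and 1.097 in control cells and 2.996 and 2.91 in cells given LPS alone. The LPS+HF and control arrays overlapped, and the difference of 0.17 was near baseline. Zbp1, a sensor of Z-form nucleic acid, was at 1.26 and 0.99 in LPS+HF cells, against 0.57 and 1.31 in control cells. LPS alone had moved Zbp1 by 2.67. The remaining members near baseline were Oas2, Ifi35, Dhx58, Bst2, Ifitm3, Igtp, Ddx58 and Ifih1, between -0.40 and 0.23.

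A few interferon-stimulated genes outside the naming rule were picked after their values were seen. Usp18, the protease that removes ISG15 from proteins and damps interferon signalling, fell by 0.98 (SE 0.19, adjusted p = 0.0475), and Rtp4 fell by 1.25 (SE 0.24, adjusted p = 0.0438). Their LPS minus control values were 1.24 and 1.52, and their HF minus control values were -1.76 and -4.36, and all 4 passed. Isg15, a ubiquitin-like protein, was at 3.67 and 3.16 in LPS+HF cells, against 4.23 and 3.47 in control cells and 6.90 and 6.99 with LPS alone. Its difference of -0.44 had an interval of -1.15 to 0.28, which neither passed nor fitted inside the baseline range. In Oasl2 the control arrays stood apart. It was at 1.92 and 1.50 in LPS+HF cells, against -2.06 and 1.73 in control cells, so the mean difference of 1.87 became -0.02 against control replicate 2 alone.

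**Figure D2:**
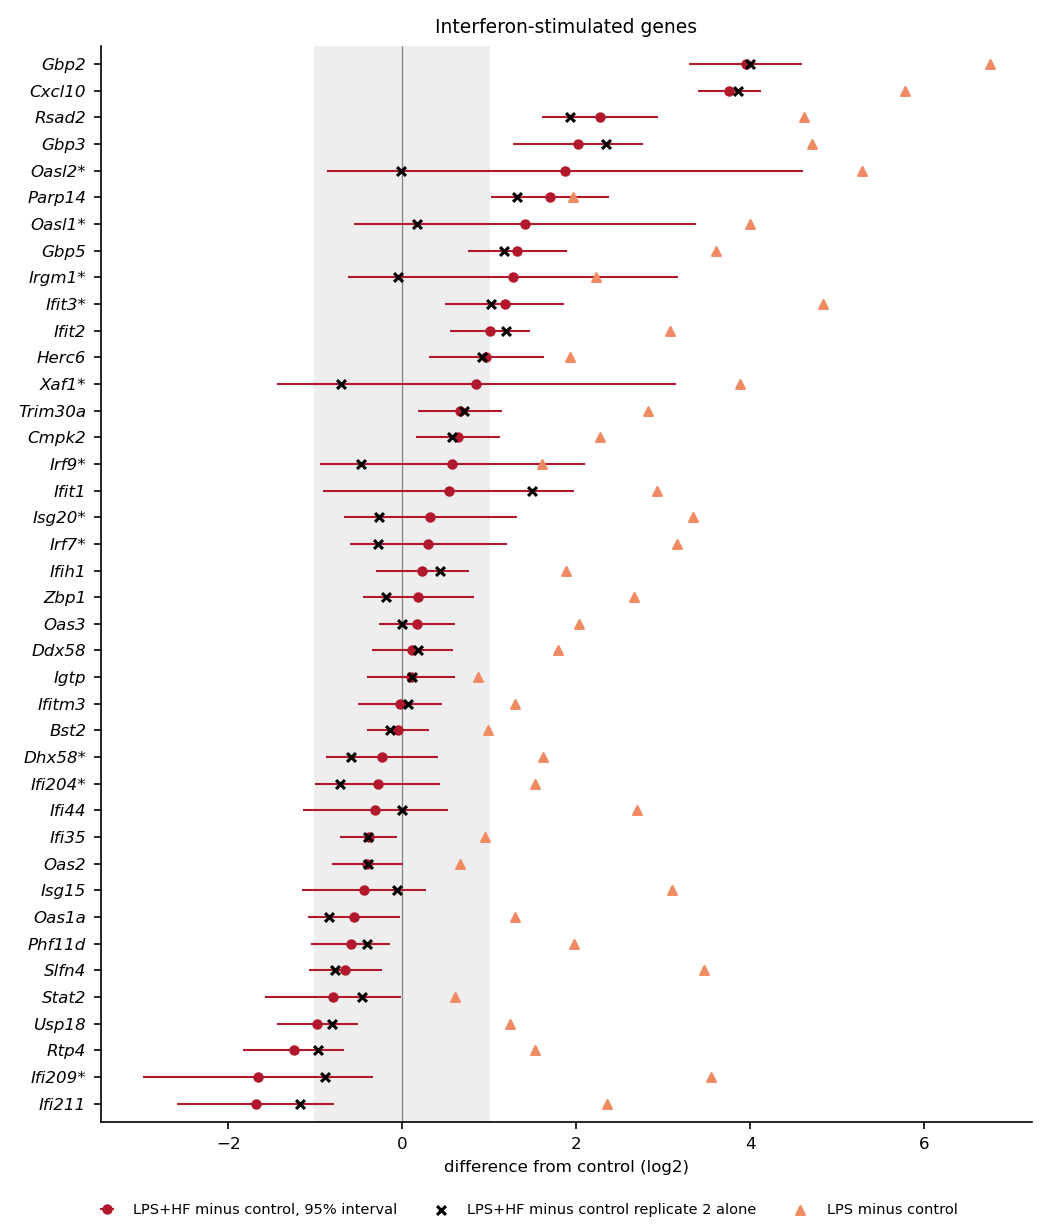
Differences from control (log2) of the 40 interferon-stimulated genes tested, ordered by LPS+HF minus control (circles, with 95% intervals), with LPS+HF minus control replicate 2 alone (crosses) and LPS minus control (triangles). The grey band marks -1 to 1, and an asterisk marks the 11 genes whose spots on control replicate 1 were dimmed; 30 crosses lie inside the band, and Gbp2 and Cxcl10 lie far to its right.

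Promoter letters were set beside these values for members that rose and members near baseline. The sequences come from RefSeq on GRCm38.p6 and run from 250 bases before to 50 bases after the start of the transcript. The ISRE was searched as GAAA, any 2 bases and GAAA again, on both strands, and an NF-kB site as the kappaB consensus of 10 letters on both strands. A promoter with ISRE letters was found for 3.99% of 27025 genes, for 3.88% of the 11064 tested genes with a promoter, and for 57.6% (19 of 33) of the interferon-stimulated genes with a promoter. It was found for 5 of the 6 interferon-stimulated genes that rose and had a promoter entry, and for 6 of the 7 near baseline. Among LPS-raised genes it was found for 8.0% (12 of 150) of those that stayed higher and 15.1% (16 of 106) of those near baseline. A match is a description of letters, not a bound site.

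Shown, with motif matches in capitals, are Gbp2 and Cxcl10, which rose, Oas3, which was near baseline, Isg15, which neither passed nor was near baseline, and Phf11b, a gene outside the interferon-stimulated list that LPS alone raised and that was near baseline in LPS+HF cells. Gbp2 (chr3:142620413-142620712, plus strand) has 1 ISRE and 1 kappaB match, and Cxcl10 (chr5:92348840-92349139, minus strand) has 1 ISRE and 3 kappaB matches, of which 2 overlap. Oas3 (chr5:120777610-120777909, minus strand) has 1 of each, Isg15 (chr4:156200769-156201068, minus strand) has 3 overlapping ISRE matches, and Phf11b (chr14:59341281-59341580, minus strand) has 1 ISRE match. In Gbp2, Cxcl10 and Oas3 the ISRE match comes before the kappaB matches, and no ISRE match overlaps a kappaB match.
Gbp2: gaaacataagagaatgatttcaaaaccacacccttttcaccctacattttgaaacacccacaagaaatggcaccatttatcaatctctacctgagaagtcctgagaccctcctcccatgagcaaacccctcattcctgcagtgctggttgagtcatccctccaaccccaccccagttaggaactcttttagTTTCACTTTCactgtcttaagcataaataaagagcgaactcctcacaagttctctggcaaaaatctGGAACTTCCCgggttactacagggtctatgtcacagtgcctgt
Cxcl10: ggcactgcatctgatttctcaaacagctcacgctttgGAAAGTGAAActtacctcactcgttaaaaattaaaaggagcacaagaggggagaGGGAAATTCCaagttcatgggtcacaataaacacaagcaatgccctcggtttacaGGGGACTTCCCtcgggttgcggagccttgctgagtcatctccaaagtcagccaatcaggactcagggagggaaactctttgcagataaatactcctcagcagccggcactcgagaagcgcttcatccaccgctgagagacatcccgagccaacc
Oas3: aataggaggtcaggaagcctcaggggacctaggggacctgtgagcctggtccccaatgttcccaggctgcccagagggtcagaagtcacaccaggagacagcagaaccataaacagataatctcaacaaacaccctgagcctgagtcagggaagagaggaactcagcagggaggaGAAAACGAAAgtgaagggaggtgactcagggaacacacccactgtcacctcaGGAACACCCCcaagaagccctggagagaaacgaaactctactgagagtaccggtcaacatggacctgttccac
Isg15: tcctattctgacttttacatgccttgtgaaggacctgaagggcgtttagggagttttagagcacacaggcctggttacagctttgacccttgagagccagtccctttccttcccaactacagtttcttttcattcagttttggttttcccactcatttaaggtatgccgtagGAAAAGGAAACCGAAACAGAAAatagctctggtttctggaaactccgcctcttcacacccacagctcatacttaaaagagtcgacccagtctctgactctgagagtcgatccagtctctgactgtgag
Phf11b: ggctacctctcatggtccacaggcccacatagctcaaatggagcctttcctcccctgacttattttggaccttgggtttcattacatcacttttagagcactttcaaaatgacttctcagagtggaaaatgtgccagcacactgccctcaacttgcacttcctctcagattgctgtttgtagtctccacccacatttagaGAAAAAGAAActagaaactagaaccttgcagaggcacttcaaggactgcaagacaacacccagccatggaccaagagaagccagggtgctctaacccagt

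Part of the genes of LPS recognition and NF-kB feedback rose in LPS+HF cells. Of 28 tested members 13 rose, none fell and 8 were near baseline, with a median of 0.89 in LPS+HF minus control, 0.58 in LPS minus control and 0.22 in HF minus control. All 11 members that LPS alone had raised by at least 1 log2 unit also passed higher in LPS+HF cells. With control replicate 1 left out, the median of LPS+HF minus control was 1.11. Nfkbia, the inhibitor IkB-alpha and a direct NF-kB target, was at 7.09 and 6.95 in LPS+HF cells, against 3.22 and 3.25 in control cells, 5.72 and 5.88 with LPS alone and 4.21 and 4.27 with HF alone. It rose by 3.79 (SE 0.14, adjusted p = 0.000347), and its LPS+HF level was the highest of the 4 groups.

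Traf1, an adaptor of TNF receptors, rose by 3.91 (SE 0.19, adjusted p = 0.000862), Nfkbiz by 3.39 (SE 0.14) and Irak3, a brake on Toll-like receptor signalling, by 2.87 (SE 0.26). The subunits Relb and Nfkb2 rose by 1.88 and 1.46, and the feedback enzymes Tnfaip3 and Zc3h12a by 2.29 and 1.91. Cd14, the LPS co-receptor, rose by 1.00 (adjusted p = 0.0277). Lbp, the LPS-binding protein, was picked after its values were seen. It was at 0.07 and -0.22 in LPS+HF cells, against -2.51 and -2.43 in control cells, -2.31 and -2.93 with LPS alone and -0.46 and -0.57 with HF alone. It rose by 2.40 (SE 0.23, adjusted p = 0.00692), and its LPS minus control value was -0.15. The adaptors and kinases Myd88, Tirap, Ticam1, Irak2, Irak4 and Traf6 were near baseline, as were Nfkbib and Socs1. The difference of Nfkbib was 0.54, and its interval of 0.15 to 0.92 lay wholly above 0.

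Inflammatory cytokines and mediators had 8 of 18 tested members higher, none lower and 4 near baseline, with a median of 0.98, against 1.12 for LPS minus control. With control replicate 1 left out, the median of LPS+HF minus control was 0.76. Tnf was at 4.32 and 4.33 in LPS+HF cells, against 0.43 and 0.44 in control cells and 3.15 and 3.05 with LPS alone, a rise of 3.89 (SE 0.13, adjusted p = 0.000341). The groups were far apart, and the 2 arrays of each nearly coincided. Il6 was at -1.55 and -1.90 in LPS+HF cells and below background on both control arrays. That is at least 7.0-fold higher, with a fitted difference of 4.51 (adjusted p = 0.000801). Il1b, also below background in control cells, was at least 12.5-fold higher (fitted difference 3.81, adjusted p = 0.0022).

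Acod1, which makes itaconate, rose by 4.52 (SE 0.16), and Il1a, above background on 1 control array, by 3.74 (SE 0.35). Nos2, the inducible nitric oxide synthase, was at 3.59 and 3.17 in LPS+HF cells, against 1.91 and 1.93 in control cells, 4.67 and 4.88 with LPS alone and 0.73 and 0.96 with HF alone. It rose by 1.46 (SE 0.19, adjusted p = 0.0179) and stayed between the control and LPS arrays. Ptgs2, the inducible cyclooxygenase, rose by 1.63 (SE 0.22, adjusted p = 0.0182). Nos2 and Ptgs2 each passed in 2 of the 8 fits that left out 1 array. Il1rn, the interleukin 1 receptor antagonist, was the single member raised by LPS alone that did not pass here. Its difference was 0.57 (adjusted p = 0.143), against 3.55 for LPS minus control. Tnfsf9, Osm, Il15 and Il18 were near baseline.

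Among 13 tested chemokines 4 rose, 1 fell and 4 were near baseline. Cxcl2, a neutrophil attractant, was at -0.26 and -0.73 in LPS+HF cells, against control arrays below background and -3.38 and -2.99 with LPS alone. It was at least 16.4-fold higher than control (fitted difference 5.60, SE 0.26, adjusted p = 0.00076). Ccl5 rose by 3.47 (SE 0.28, adjusted p = 0.00403), with 6.56 for LPS minus control, and Ccl2 rose by 2.42 (SE 0.33, adjusted p = 0.0198). Ccl24 was at -1.44 and -1.53 in LPS+HF cells, against 2.24 and 1.25 in control cells, and fell by 3.23 (SE 0.35, adjusted p = 0.0102). Ccl9, Ccl6, Ccl3 and Ccl4 were near baseline, but Ccl9 lay 0.72 above control replicate 2 alone. The chemokine median was 0.34, and 0.72 without control replicate 1.

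Acute-phase and iron-binding proteins had 7 of 10 tested members higher and none lower, with a median of 2.65, against 3.76 for LPS minus control. Without control replicate 1 the LPS+HF minus control median was 2.97. Lcn2, which binds bacterial siderophores, was at 5.48 and 5.07 in LPS+HF cells, against -0.88 and -1.14 in control cells and 6.66 and 6.64 with LPS alone, a rise of 6.28 (SE 0.20, adjusted p = 0.000341). The serum amyloid genes Saa3 and Saa1 rose by 5.55 (SE 0.21) and 4.72 (SE 0.21), and Saa2, below background in control cells, was at least 4.81-fold higher. These 3 are close relatives, and cross-hybridisation between their probes was not tested. Haptoglobin (Hp) rose by 2.64 (SE 0.16) and Slpi by 0.95 (SE 0.17). Orm2, below background in control cells, was at least 3.02-fold higher. Slc11a1 was near baseline at 0.42.

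Promoters of 2 more genes that stayed raised are shown with kappaB matches in capitals. The kappaB letters were found for 9.55% of all genes with a promoter and 11.85% of those tested. They were found for 5 of the 9 LPS recognition and NF-kB feedback genes that rose and had a promoter entry, for none of the 8 near baseline and for 7 of all 21 with an entry. Among acute-phase genes they were found for 0 of 8, of which 6 rose. Among LPS-raised genes they were found for 18% of those that stayed higher and 14.15% of those near baseline. Cxcl2 (chr5:90903649-90903948, plus strand) has 2 overlapping matches, and Nfkbia (chr12:55492598-55492897, minus strand) has 1.
Cxcl2: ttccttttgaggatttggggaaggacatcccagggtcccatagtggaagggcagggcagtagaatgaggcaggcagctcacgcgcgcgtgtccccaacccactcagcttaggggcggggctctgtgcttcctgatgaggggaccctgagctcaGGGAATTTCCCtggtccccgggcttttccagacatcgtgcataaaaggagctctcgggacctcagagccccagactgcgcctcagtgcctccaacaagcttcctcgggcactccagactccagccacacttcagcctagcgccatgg
Nfkbia: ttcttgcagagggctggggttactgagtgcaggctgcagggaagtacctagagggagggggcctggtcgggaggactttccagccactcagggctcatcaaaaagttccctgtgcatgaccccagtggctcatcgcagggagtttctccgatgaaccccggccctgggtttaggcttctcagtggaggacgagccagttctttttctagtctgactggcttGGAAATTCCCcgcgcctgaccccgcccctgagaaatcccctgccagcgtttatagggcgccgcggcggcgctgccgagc

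The largest rises held inflammatory genes and a few others. Batf, a transcription factor of the AP-1 family, was at 2.68 and 2.51 in LPS+HF cells, against control arrays below background and 0.89 and 0.92 with LPS alone. It was at least 139.7-fold higher (fitted difference 7.97, SE 0.26, adjusted p = 0.000341). Marco, a scavenger receptor that binds bacteria, was at 7.09 and 7.16 in LPS+HF cells, against 1.06 and 1.12 in control cells and 8.93 and 9.05 with LPS alone, a rise of 6.03 (SE 0.13, adjusted p = 0.00014). Vnn3, a pantetheinase, rose by 4.90 (SE 0.27), and Fas, the death receptor, by 4.56 (SE 0.18). Zfp811 and Rpl39l were below background in control cells and at least 11.8-fold and 6.90-fold higher. The control arrays of Zfp811 differed by 2.35, and its adjusted p was 0.0261. The 10 largest rises also hold Lcn2, Cxcl2, Saa3 and Saa1. For the 6 of them above background in control cells, HF minus control lay between -0.86 for Saa1 and 0.58 for Fas.

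For the 10 largest falls, LPS minus control and HF minus control were below 0 as well. All these differences share the 2 control arrays, and the genes were picked by their fall, so the shared sign is no test. Arg1, the arginase that competes with Nos2 for arginine, was at -3.79 and -5.15 in LPS+HF cells, where 1 of the 2 arrays was above background, against 4.75 and 4.87 in control cells. It was at -2.48 and -2.52 with LPS alone and 0.25 and 0.49 with HF alone. It fell by 9.28 (SE 0.42, adjusted p = 0.000617), and the LPS+HF arrays were the lowest of the 8. A group of 4 genes named as stefin A relatives or cystatin domain genes, Csta2, Cstdc4, Cstdc5 and Stfa2l1, all on chromosome 16, fell together. Csta2 was at -0.40 and -0.49 in LPS+HF cells, against 4.38 and 4.42 in control cells, 2.04 and 1.82 with LPS alone and 0.86 and 0.74 with HF alone. It fell by 4.84 (SE 0.14, adjusted p = 0.000341). Cstdc5, Cstdc4 and Stfa2l1 fell by 5.27, 5.12 and 4.66, with LPS minus control values of -2.82, -2.61 and -2.75 and HF minus control values of -3.84, -3.76 and -3.47. These genes are close relatives, and cross-hybridisation between their probes was not tested.

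Serpinb1a, an inhibitor of neutrophil proteases, was at 2.91 and 2.26 in LPS+HF cells, against 6.89 and 6.83 in control cells, 4.84 and 4.80 with LPS alone and 4.39 and 4.36 with HF alone. It fell by 4.27 (SE 0.22, adjusted p = 0.00103). Its relative Serpinb1c fell by 4.37 (SE 0.38) with a dimmed spot on control replicate 1, and by 4.70 against control replicate 2 alone. Sema4g, Krt23 and Cyp2s1 were below background on both LPS+HF arrays and at least 13.02-fold, 7.81-fold and 9.05-fold lower.

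**Figure D3:**
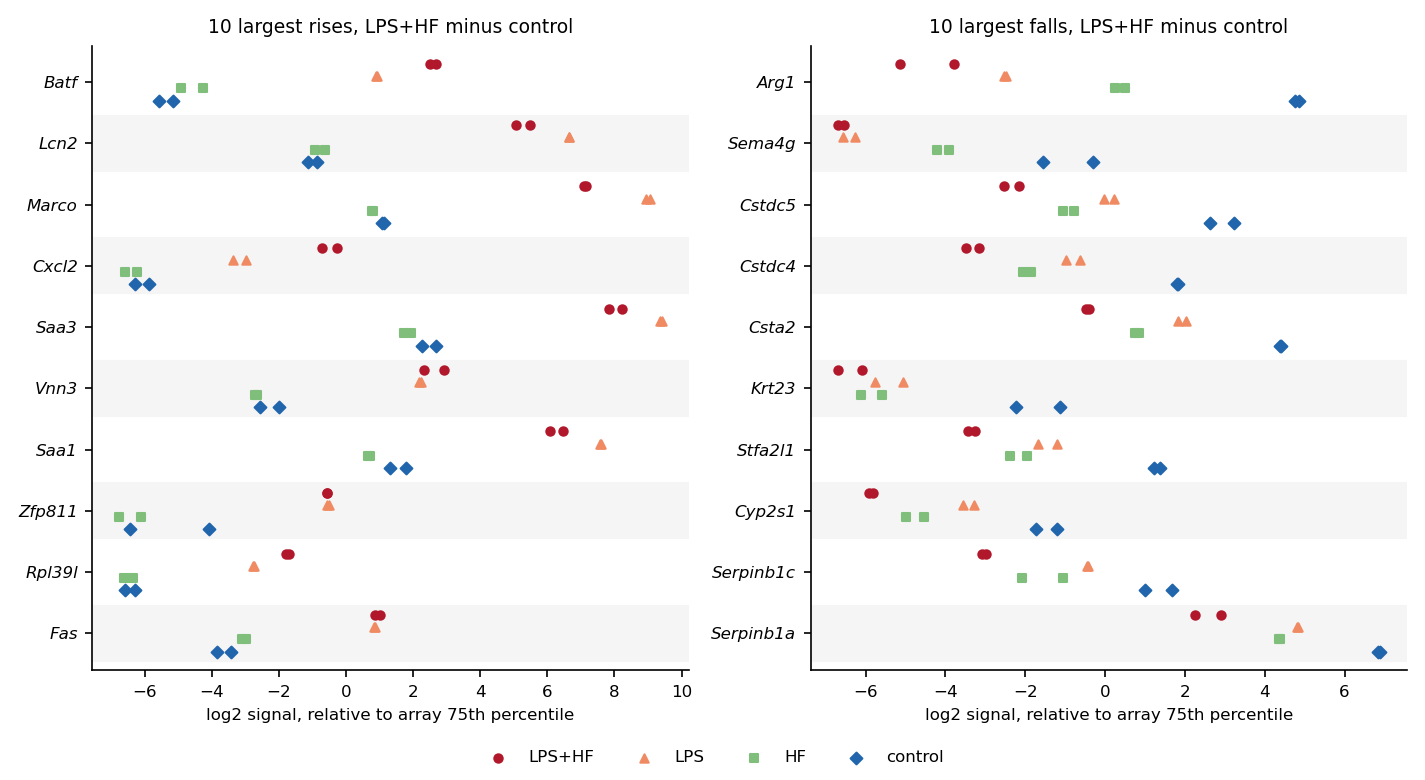
Log2 signals relative to the array's 75th percentile for the 10 largest rises (left) and the 10 largest falls (right) of LPS+HF minus control, with each point 1 array and the groups LPS+HF, LPS, HF and control from top to bottom in each row. In every row the 2 LPS+HF points lie apart from the 2 control points. The choice of these genes required this, and it held for 56.7% of all genes tested. The LPS+HF minus control difference was 7.97 for Batf and -9.28 for Arg1.

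At baseline in LPS+HF cells lay genes that LPS alone had moved, Ddit3 by 3.61 log2 units. Mirt2 had a fitted LPS minus control value of 3.97, but its control arrays were below background. The bound on its LPS minus control difference was 1.99. The 10 with the largest LPS minus control values were Mirt2, Ddit3, Sfpq, Phf11a, Phf11b, Zbp1, Col4a1, Lrrc14b, Ms4a6c and Ccl9. Mirt2 and Col4a1 were below background in both LPS+HF and control cells, as were 11 of the 463 in all. Ddit3, the stress-induced factor CHOP, was at 0.82 and 0.35 in LPS+HF cells, against 0.91 and 0.49 in control cells and 4.36 and 4.26 with LPS alone. Its difference was -0.12 with an interval of -0.66 to 0.43. Sfpq, a splicing factor and paraspeckle protein, was lower with LPS alone. It was at 3.88 and 4.06 in LPS+HF cells, against 4.01 and 3.94 in control cells and 0.96 and 1.04 with LPS alone. The LPS+HF and control arrays of both genes overlapped.

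Phf11a and Phf11b, neighbours on chromosome 14, were at 1.69 and 1.35, and 1.68 and 1.43, in LPS+HF cells, against 1.20 and 1.99, and 1.78 and 1.90, in control cells. LPS minus control was 2.76 and 2.75, and HF minus control was -1.22 and -1.66. Ms4a6c, a membrane protein of myeloid cells, and Ccl9 had differences of 0.06 and 0.34. Their LPS minus control values were 2.43 and 2.38, and their HF minus control values were -1.60 and -1.66. Against control replicate 2 alone, Ms4a6c and Ccl9 lay 0.42 and 0.72 higher. After a spatial correction within the arrays their differences were 0.57 and 0.71 (limma adjusted p = 0.0244 and 0.00965). Their place at baseline thus depended on control replicate 1. Lrrc14b lay at the edge of the baseline range. It was at 0.64 and 0.45 in LPS+HF cells, against 1.12 and 1.17 in control cells, with no overlap, a difference of -0.61 and an adjusted p of 0.0678.

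**Figure D4:**
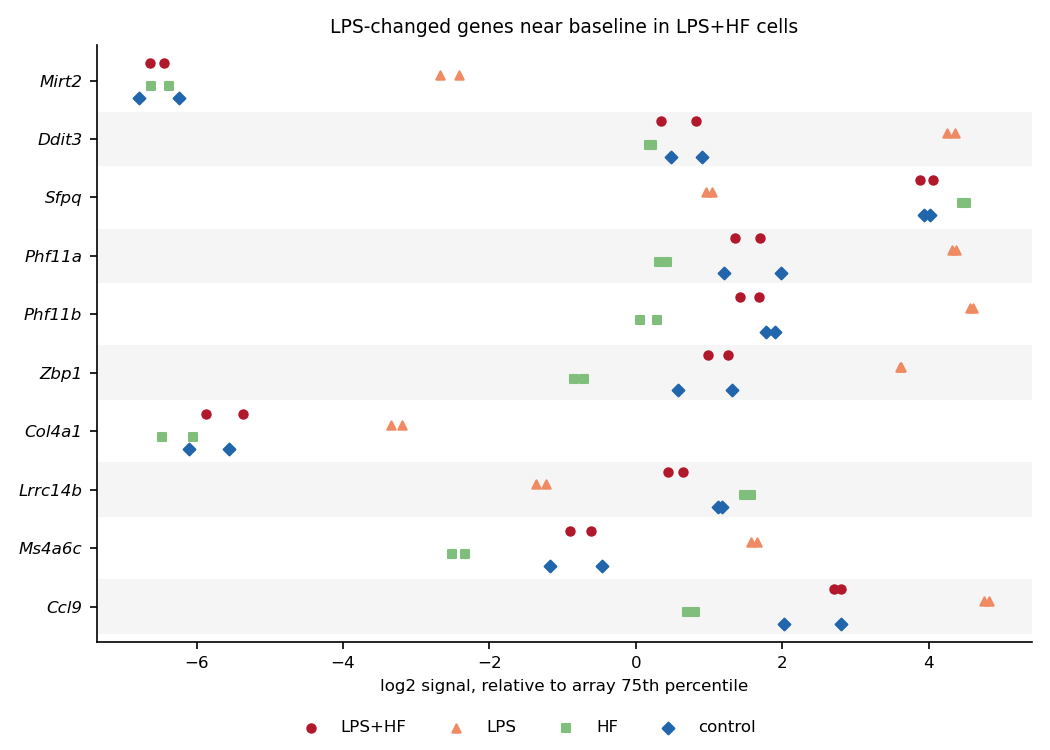
Log2 signals relative to the array's 75th percentile for the 10 genes near baseline in LPS+HF cells with the largest LPS minus control differences; each point is 1 array, and each row holds LPS+HF, LPS, HF and control from top to bottom. The LPS+HF points lie beside the control points, while the LPS points lie to the right in 8 rows and to the left for Sfpq and Lrrc14b.

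Stress genes were near baseline about as often as all genes tested (50.2%). Of 22 tested members of the integrated stress response, which slows translation and turns on amino acid genes, 2 rose, none fell and 12 were near baseline, with a median of -0.10, against 0.73 for LPS minus control. Of 7 members that LPS had raised, 4 were near baseline, Ddit3 and Trib3 among them, and 1 stayed raised. Trib3, a pseudokinase induced by CHOP, was at 3.94 and 3.78 in LPS+HF cells, against 4.05 and 3.92 in control cells and 6.13 and 6.11 with LPS alone. Slc7a11, the cystine transporter, stayed raised. It was at 0.49 and 0.48 in LPS+HF cells, against -3.41 and -3.15 in control cells and 0.53 and 0.71 with LPS alone, a rise of 3.77 (SE 0.17, adjusted p = 0.000617). The list of unfolded protein response and chaperone genes had 0 of 23 members that passed in either direction by limma (7 at an unadjusted p under 0.05). Near baseline lay 13 of them.

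Of 29 NRF2 and antioxidant genes 4 rose, Slc7a11 among them, 1 fell and 12 were near baseline. Gsr, glutathione reductase, rose by 1.56 (SE 0.17, adjusted p = 0.0103), and Blvrb and Srxn1 by 0.88 and 0.82. Hmox1, haem oxygenase 1, was at 5.84 and 5.47 in LPS+HF cells, against 5.47 and 5.61 in control cells and 7.42 and 7.30 with LPS alone. The arrays overlapped, and its difference of 0.11 was near baseline, although its spot on control replicate 1 was dimmed. The list median was 0.31, and 0.52 without control replicate 1.

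Glycolysis and hypoxia genes had 3 of 28 members lower, none higher and 18 near baseline, with a median of -0.38, against -0.94 for LPS minus control. Ndrg1, a hypoxia-responsive gene, fell by 1.72 (SE 0.14, adjusted p = 0.00454), and Higd1a fell by 0.65. Adm passed lower (adjusted p = 0.0484), but it was above background on 1 LPS+HF and 1 control array, and its spot on control replicate 1 was dimmed. Pdk1, a pyruvate dehydrogenase kinase, was at 3.05 and 2.94 in LPS+HF cells, against 2.80 and 3.25 in control cells and 1.65 and 1.60 with LPS alone. Pfkl, a phosphofructokinase, was also near baseline at 0.10. The median of the glycolysis and hypoxia list was -0.41 without control replicate 1. Oxidative phosphorylation subunits had 20 of 30 near baseline and 0 that passed by limma in either direction (6 at an unadjusted p under 0.05).

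Mitosis genes had a median of 0.59 in LPS+HF minus control, against -0.49 for LPS minus control and 0.57 for HF minus control. Of 34 members 1 rose, none fell and 15 were near baseline, where 1.92% of all genes tested passed higher and 50.2% were near baseline. Tpx2, a spindle assembly factor, rose by 1.07 (SE 0.20, adjusted p = 0.0450). Against control replicate 2 alone, all 34 lay within 1 log2 unit, a range that was not counted over all genes. The list median was 0.57 without control replicate 1. Cdc20 and Ube2c, which drive exit from mitosis, were near baseline at 0.45 and 0.37, with LPS minus control values of -1.101 and -1.07. Of 33 DNA replication genes 3 rose and 17 were near baseline. Cdc6 and Rrm2 rose by 0.89 each (the control replicate 1 spot of Rrm2 was dimmed), and Pole by 0.74, although the mean over the probes of Pole gave -0.66.

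Btg2, Lbp and Atp6v0d2 differed from cells given LPS alone too, by 2.78 (adjusted p = 0.00801), 2.54 (adjusted p = 0.0104) and -2.47 (adjusted p = 0.0201) in LPS+HF minus LPS, a comparison in which 6.26% of all genes tested passed, 2.99% higher and 3.26% lower. Of 20 immediate early genes 4 rose, none fell and 5 were near baseline, with a median of 0.67, against -0.10 for LPS minus control. Btg2, an antiproliferative immediate early gene, was at 2.20 and 1.69 in LPS+HF cells, against -1.11 and -1.06 in control cells, -0.89 and -0.78 with LPS alone and 0.32 and 0.28 with HF alone. It rose by 3.03 (SE 0.19, adjusted p = 0.0021). Fos rose by 1.76 (SE 0.22, adjusted p = 0.0159), with 1.12 for HF minus control and -0.27 for LPS minus control, and Myc, below background in control cells, was at least 7.26-fold higher. The median of the immediate early list was 0.60 without control replicate 1. Atp6v0d2, a lysosomal proton pump subunit, was at 1.70 and 0.83 in LPS+HF cells, against 3.33 and 4.01 in control cells and 3.76 and 3.71 with LPS alone. It fell by 2.41 (SE 0.34, adjusted p = 0.0224) and was the single lysosome gene of 30 that passed, with 19 near baseline. Of all genes tested, 5.1% passed against control.

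Some lipid genes fell. Of all genes tested, 3.18% passed lower and only 1.92% higher, so the absence of rises in these lists is no trait of theirs. Of 19 genes of cholesterol efflux and lipid storage 6 fell, none rose and 7 were near baseline. Fabp4, a fatty acid binding protein, was at 4.83 and 4.10 in LPS+HF cells, against 6.90 and 6.91 in control cells, 6.50 and 6.51 with LPS alone and 5.03 and 4.84 with HF alone. It fell by 2.44 (SE 0.25, adjusted p = 0.00826), with a dimmed spot on control replicate 1, and by 2.45 against control replicate 2 alone. Fabp5, Apoc1 and Apoc2 fell by 1.25, 1.87 and 1.39. Of 24 cholesterol synthesis genes 2 fell, none rose and 13 were near baseline, and Fdps, which makes farnesyl pyrophosphate, fell by 1.44 (SE 0.24, adjusted p = 0.0331). The medians of the efflux and synthesis lists were -0.11 and -0.35. They were -0.23 and -0.48 without control replicate 1.

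Genes of arginine metabolism and alternative activation had 4 of 17 lower, 1 higher and 6 near baseline. Beside Arg1, the decoy receptor Il1r2 fell by 3.33 (SE 0.41, adjusted p = 0.0147), the mannose receptor Mrc1 by 1.95 (SE 0.20, adjusted p = 0.00879), and Clec10a by 1.45. Myc, also among the immediate early genes, is the member that rose. Ass1, which recycles citrulline to arginine, and Mgl2 were near baseline at 0.35 and -0.03. Homeostatic microglial genes had 3 of 16 lower, none higher and 5 near baseline, with a median of -0.56. P2ry12, a purine receptor of resting microglia, was below background on both LPS+HF arrays and at least 3.39-fold lower, Fcrls fell by 1.13 (SE 0.17), and Trem2, a lipid-sensing receptor, fell by 1.05 (SE 0.14, adjusted p = 0.0202). Cx3cr1 and Tmem119 were near baseline at -0.55 and -0.58. Their intervals, -0.90 to -0.20 and -0.92 to -0.24, lay inside the baseline range but wholly below 0. The homeostatic median was -0.62 without control replicate 1.

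Of 14 complement genes 2 rose and 2 fell. Cfb and C3, components that feed the alternative pathway, rose by 3.66 (SE 0.28) and 1.89 (SE 0.20), and C1qc, a chain of the C1q recognition protein, fell by 1.29 (SE 0.15). Antigen presentation had 2 of 20 members higher, none lower and 11 near baseline. The co-stimulator Cd40 rose by 1.51 and Tapbp by 1.15, while Tap2 and H2-K1 were near baseline at 0.27 and 0.36. Of 17 inflammasome and cell death genes 3 rose, none fell and 8 were near baseline. The inflammatory caspases Casp4 and Casp1 rose by 1.53 and 0.72.

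Of 18 p53 targets 5 rose and 3 fell. Fas and Gadd45a rose by 4.56 and 2.50, and both are also induced by inflammatory signals. Cdkn1a, the cell cycle inhibitor p21, fell by 1.08 (SE 0.18, adjusted p = 0.0359), and Bax by 0.83. Of 13 BCL-2 family genes 1 rose and 1 fell, where 1.92% of all genes tested passed higher and 3.18% lower. Among 19 scavenger and phagocytic receptors Marco rose, 2 fell and 4 were near baseline, with Clec4e, whose spot on control replicate 1 was dimmed, at -0.10, against 2.16 for LPS minus control. Among 12 genes of matrix metalloproteinases and adhesion Itgb2 rose by 0.77, and the urokinase Plau and its receptor Plaur fell by 2.78 and 1.19. Of 9 metallothionein and zinc genes Mtf1 rose by 1.02 and 5 were near baseline. Actb, used often as a reference, was at 8.77 and 8.93 in LPS+HF cells, against 10.03 and 9.56 in control cells. Its difference of -0.95 did not pass (adjusted p = 0.0533).

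**Figure D5:**
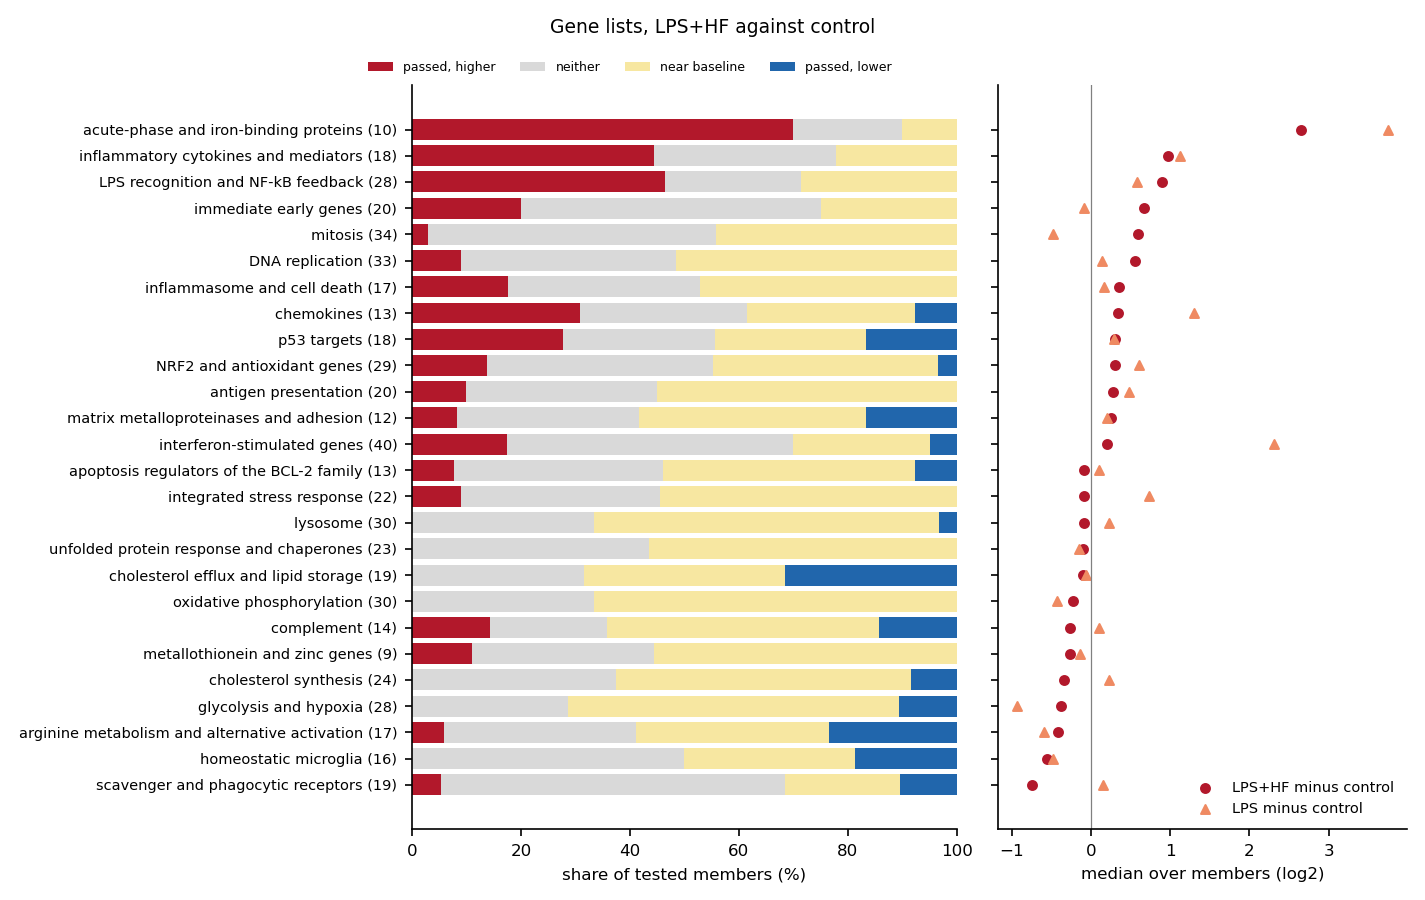
Left, share of tested members (%) of 26 gene lists that passed higher, were neither, were near baseline or passed lower in LPS+HF minus control, with the number tested in brackets. Right, list medians (log2) of LPS+HF minus control (circles) and LPS minus control (triangles); the acute-phase list has the highest LPS+HF median at 2.65, and the interferon-stimulated list has medians of 0.21 and 2.31.

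Of genes that LPS alone moved by at least 1 log2 unit and past the test, 9 passed on the opposite side in LPS+HF cells. These were 8 of the 719 that LPS raised and 1 of the 806 that it lowered. Genes with a smaller LPS minus control difference were not counted. The 9 were picked after their values were seen. Beside Usp18 and Rtp4, Ankfy1 was at -1.85 in LPS+HF minus control and 1.26 in LPS minus control, and Prss46 was at -1.92 and 2.50. Macc1 and Car6 belong to this set too, but Car6 was below background in both LPS+HF and control cells and Macc1 was above it on 1 control array alone. The last 3 have no symbol here.

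The cells kept macrophage transcripts. All 10 markers of microglia and macrophages were above background in every group. Their summed level (on the linear scale, in units of the array's 75th percentile) was 546 to 618 on the LPS+HF arrays, against 751 to 809 on the control arrays. Both LPS+HF arrays lay below both control arrays for Lyz2, Aif1, Tyrobp, Itgam, Fcgr3 and Ptprc, and above them for Adgre1. The arrays overlapped for Csf1r, Cd68 and Spi1. Of 8 homeostatic markers, 5 were above background in LPS+HF cells and 6 in control cells, and Sall1 and Gpr34 were below it in both. Of 5 markers each, fibroblasts had 1 in both groups, astrocytes 2 in both, neurons 2 in LPS+HF and 1 in control cells, endothelium 3 and 2, and T and B cells 2 and 3. All 5 oligodendrocyte markers were above background in both, with sums of 21.2 to 21.3 on the LPS+HF arrays, against 47.9 to 65.3 on the control arrays. Their part in the results was not tested. In RNA from a whole culture, fewer cells expressing a gene and less RNA per cell cannot be told apart.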

How the data were processed

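Messenger RNA of BV-2 cells was measured on 8 single-colour Agilent arrays, 2 in each of 4 groups. Per the file headers, the intensity of each spot was made with Agilent Feature Extraction 11.5.1.1, which subtracted background and corrected trends within the array without scaling between arrays. The log2 values of the authors' deposited matrix matched the same signals taken relative to the 75th percentile of the array, minus the median of the probe over all arrays (Pearson r of at least 0.99996 on each array), and their array medians ran from -0.11 to 0.19. With 2 arrays a group, precision is limited by the number of arrays.

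Processed signals of probes that are not controls were averaged over unflagged spots on the log2 scale after the shift to the 75th percentile. A probe was kept (30344 were) if some group had it well above background on each of its 2 arrays. The kept probe with the highest mean stood for its gene. Symbols came from RefSeq transcript accessions (28026 of 55681 probes, 50.3%, 21154 symbols). Group means were fitted with limma 3.58.1 in R 4.3.3 (4 residual and 2.04 prior degrees of freedom). Where both arrays of a group were below background, "at least" sets the brighter group's mean against the lowest signal of any probe above background on each dim array, or the probe's own signal where higher. Python 3.11.15, numpy 2.4.6, pandas 2.3.3 and matplotlib 3.10.9 were used.

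The members and the 26 gene lists were chosen with earlier results of these data known. The genes named are the 10 largest rises and falls that passed and lay at least 1 log2 unit from control replicate 2 alone, the 10 genes near baseline that LPS alone moved most, up to 4 passed and 2 near-baseline members of each list, and Nos2, Tnf, Il6, Il1b, Ptgs2, Hmox1, Arg1 and Actb, all with a symbol and, for the rises and falls, with no overlap between the groups. Other members of the lists are named to spell out a count or were chosen after their values were seen. Alternatives were other scalings, normexp with an offset of 50, the authors' matrix, other probe filters and variance models, a spatial correction in windows of 31 by 15 spots, the replicate number as a block, and leaving out arrays. A few results are not reported here.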

Additional observations from a re-analysis of the deposited data

How the results depend on the processing

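The number of genes that passed in LPS+HF minus control (1144), of genes near baseline (11274), of LPS-changed genes that passed the same way (496) and of LPS-changed genes near baseline (463) were recomputed under each alternative. Of all the recomputed counts, 41 lay within 1.5 times their main value, while 34 were lower and 11 higher than that. The counts of genes that passed and of LPS-changed genes that passed the same way were 333 and 198 with normexp and quantile normalization, 287 and 196 with no filter on dim probes, 57 and 42 with array weights, 5612 and 980 after the spatial correction, and 3624 and 830 without both arrays marked for evaluation. With only the arrays compared, limma called 0 genes (3172 at an unadjusted p under 0.05), and 227 of the LPS-changed genes passed the same way in a fit of 6 arrays. LPS-changed genes near baseline numbered 252, 213, 12, 727 and 712 under the first 5 of these settings and 278 with only the arrays compared, and array weights left 6170 of all genes near baseline. The cause of these shifts was not tested. Leaving out 1 array at a time gave 145 to 11347 genes that passed, 7430 to 15143 near baseline, 84 to 5112 LPS-changed genes that passed the same way and 21 to 749 near baseline. The lone array of a group was then assumed to vary like the others, so without either control array the difference between the control arrays did not enter the spread. With the replicate number as a block, which the labels do not give as a pairing, 545 genes passed (192 higher, 353 lower) and 328 LPS-changed genes passed the same way. The deviations of same-numbered LPS+HF and control arrays correlated at 0.01, and those of HF and control arrays at 0.27. Of the 83 named genes that passed, 83 also passed without control replicate 1 and after the spatial correction, 78 under quantile normalization, 59 under the block, 49 with no filter on dim probes, 48 under normexp, 27 with array weights and 0 with only the arrays compared. Without 1 array, 36 to 83 of them passed, the fewest without LPS+HF replicate 2 (36) or 1 (39). In all 8 such fits 33 passed, and 31 passed in 2 of the 8, among them Nos2, Ptgs2, Gbp3, Zfp811, Cd40, Tapbp, Fcrls, Trem2, Fdps, Cdkn1a, Bax, Tpx2, Cdc6, Rrm2, Pole, Casp4 and Casp1. Pole was -0.66 as a mean over its probes. The medians of 18 of the 26 lists kept their sign under quantile normalization, median scaling and normexp. Those of the BCL-2 family, complement, lysosome and matrix metalloproteinases changed sign under at least 1 of them. So did those of metallothioneins, oxidative phosphorylation, p53 targets, and the unfolded protein response and chaperones. Signals below background give only a bound, and 35 of the genes near baseline were below it in both groups.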
